A study of Mus musculus with 12 samples.

Results

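The transcription factor NRF2, its classical target genes and the genes of glutathione synthesis were followed in bulk RNA sequencing of mouse liver after acetaminophen (APAP) overdose. The set holds 10 genes, Nfe2l2 (which encodes NRF2), Slc7a11, Gclc, Gclm, Gsr, G6pdx, Txnrd1, Srxn1, Nqo1 and Hmox1, which were chosen by name and matched to 10 of the 24187 Ensembl genes in the count table. All 10 were among the 22581 genes that passed the filter on low counts. The livers came from 3 control mice without treatment, 5 mice given APAP and a vehicle that the labels name as phosphate-buffered saline (PBS) and the methods as PBS with or without CryoStor freezing medium, and 4 mice given APAP and hAAMs, the cryopreserved alternatively activated macrophages that the study derived from human donor monocytes. The labels give an APAP dose of 350 mg/kg, whereas the severe model with which the sequencing is presented received 500 mg/kg, so the dose is uncertain. The protocol in the labels names 14 libraries, and 12 are used here. The methods describe C57BL/6J and C57BL6/JOlaHsd mice aged 10 to 12 weeks, fasted for 12 h before an intraperitoneal injection of APAP and injected with cells or vehicle 16 h later. They place tissue collection 36 h after APAP, the legend of the severe model places it 32 h after APAP, and neither the time, the strain nor the sex is given for the sequenced livers separately. The libraries of 2 livers with different labels, hAAM replicate 4 and vehicle replicate 3, were nearly alike, so that 1 liver could stand behind both; results without them close the account.

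NRF2 is held in the cytoplasm by KEAP1, which hands it to a CUL3 ubiquitin ligase for destruction. Electrophiles and oxidants modify KEAP1, NRF2 then accumulates in the nucleus, pairs with a small MAF protein and binds antioxidant response elements. In the liver, APAP is turned by cytochrome P450 enzymes, mainly in pericentral hepatocytes, into a reactive quinone imine that consumes glutathione, and the genes that NRF2 drives rebuild glutathione, supply NADPH and reduce oxidized proteins. NRF2 activity is set largely by the stability of the protein, which RNA counts do not measure.

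Promoter windows of RefSeq (GRCm38.p6) were matched to 7 of the 10 genes, in 9 windows. The 250 bases before each RefSeq start were searched on both strands for the core of the antioxidant response element, TGACNNNGC, and for the AP-1 motif, TGANTCA, which reads the same on both strands. Some antioxidant response elements also contain an AP-1 motif, so the letters of the 2 motifs can overlap. The element core was found before Nfe2l2, Gclm, G6pdx and 1 of the 3 starts of Txnrd1, that is in 4 of the 7 genes, and in 10.2% of all 32851 windows of the same length, or in at least 1 window of 11.5% of 27025 genes. The AP-1 motif was found before Srxn1 alone, at 2 positions, and in 6.75% of all windows, or 7.82% of genes. Neither set of letters was in the windows of Nqo1 and Slc7a11, and Hmox1, Gclc and Gsr were not searched here. Sequence outside the 250 bases was not searched for any gene, so a window without the letters does not show that a gene lacks the element. The sequences below are shown because they hold the motif, before genes that rose (Srxn1, G6pdx), fell (Txnrd1) or passed the test in neither direction (Nfe2l2, Gclm). They are written 5′ to 3′ on the strand of the gene, with the motif in capitals. In Gclm, Txnrd1 and G6pdx the capitals hold the element on the opposite strand. The RefSeq start can differ from the start of the GENCODE gene printed further on. It is the same for Gclm, 8 bases further into the gene for Srxn1, 314 for G6pdx and 25255 for the Txnrd1 start shown, and 22 bases outside the gene for Nfe2l2, so that the G6pdx window lies wholly within GENCODE exons. The 250 bases are given for Gclm (chr3:122245307-122245556, plus strand, element at 134 bases before the start). For Srxn1 the first 242 of them are given, up to its GENCODE start (chr2:152105274-152105515, plus strand, motifs at 102 and 45 bases before the RefSeq start at 152105524). A stretch of 30 bases is given for Nfe2l2 (chr2:75704884-75704913, minus strand), Txnrd1 (chr10:82859104-82859133, plus strand) and G6pdx (chrX:74428918-74428947, minus strand).
Gclm: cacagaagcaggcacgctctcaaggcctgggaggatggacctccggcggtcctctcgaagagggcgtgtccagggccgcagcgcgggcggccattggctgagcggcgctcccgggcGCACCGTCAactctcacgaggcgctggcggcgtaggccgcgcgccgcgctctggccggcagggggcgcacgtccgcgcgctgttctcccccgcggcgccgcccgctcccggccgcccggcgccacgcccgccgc
Srxn1: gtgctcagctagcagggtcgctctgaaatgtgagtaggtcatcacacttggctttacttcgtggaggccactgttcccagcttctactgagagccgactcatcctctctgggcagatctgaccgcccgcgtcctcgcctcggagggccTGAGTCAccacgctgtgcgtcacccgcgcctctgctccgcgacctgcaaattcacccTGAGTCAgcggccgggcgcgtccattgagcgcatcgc
Nfe2l2: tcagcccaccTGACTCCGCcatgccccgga
Txnrd1: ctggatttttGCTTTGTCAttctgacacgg
G6pdx: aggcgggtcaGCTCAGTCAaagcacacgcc

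Of the 10 genes, Srxn1, Slc7a11, Nqo1 and G6pdx rose in both APAP-injured groups against control and Txnrd1 fell in both, while Nfe2l2, Gclc, Gclm, Gsr and Hmox1 did not pass the test in either. Calls were made with edgeR's quasi-likelihood test at a Benjamini-Hochberg false discovery rate (FDR) under 0.05 over all genes tested. With vehicle, 4 of the 10 genes were higher and 1 was lower, against 15.0% of all genes tested higher and 14.8% lower. With hAAMs the counts were again 4 higher and 1 lower, against 10.7% of all genes higher and 9.96% lower. These counts depend on single livers, as do those over all genes. With hAAMs, 2 genes were higher without control replicate 2 or 3 or hAAM replicate 1 or 2, where the calls of Slc7a11 and G6pdx were lost. The share of all genes called higher fell there too, to 7.28%, 4.82%, 6.24% and 6.66% in that order. With vehicle, 0 genes were lower without control replicate 1 or 3, where the call of Txnrd1 was lost and 10.5% and 10.4% of all genes were lower. The median log2 fold change of the 10 genes was 0.24 with vehicle and 0.12 with hAAMs, beside medians of 0.01 and 0.02 over all genes tested. The values of the called genes did not overlap between the groups, which held for 5 of the 10 genes in each comparison with control and for 34.8% of all genes with vehicle and 28.5% with hAAMs. Both comparisons use the same 3 control livers, so they are not independent of each other.

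**Figure D1:**
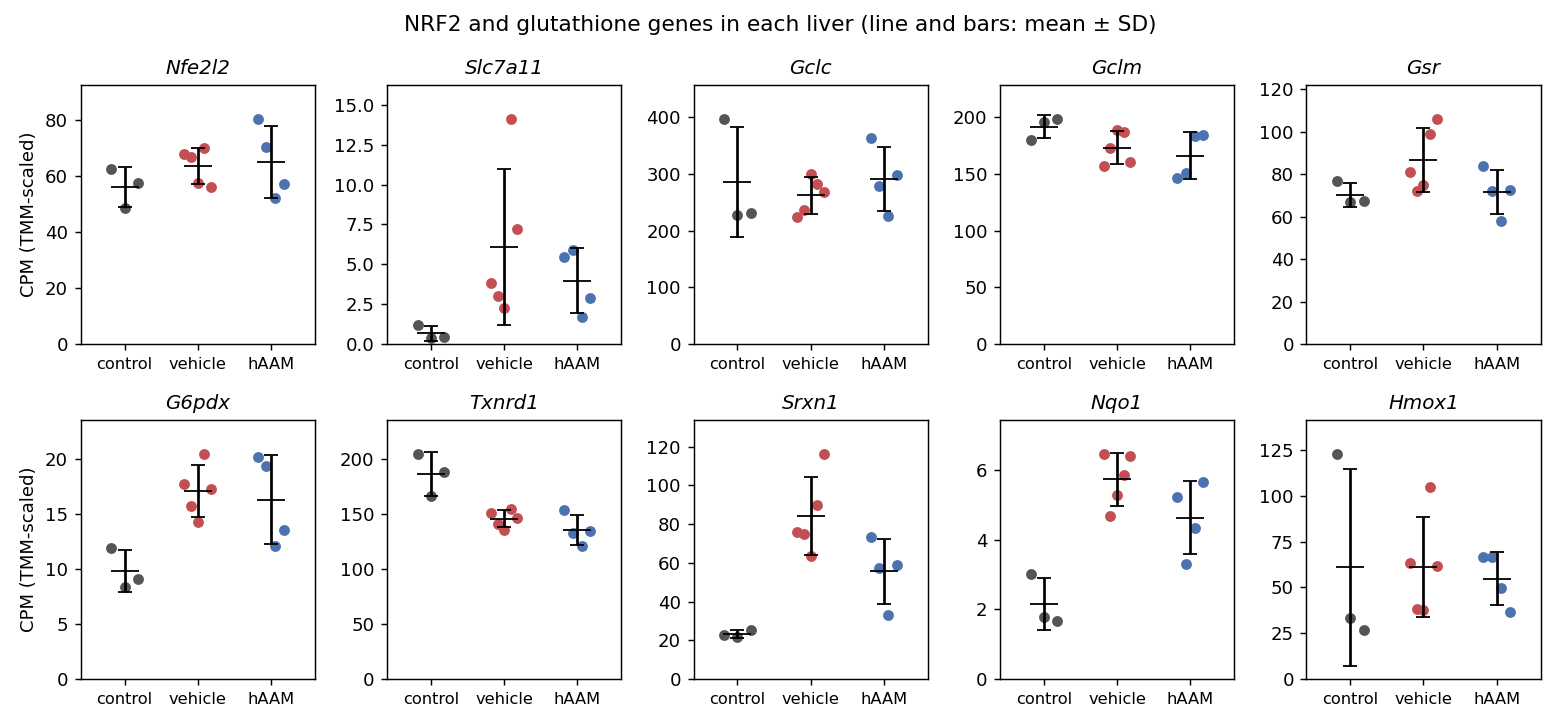
Counts per 1000000 (CPM, scaled with TMM factors, y axis from 0) of each of the 10 genes in the 3 control, 5 vehicle-treated and 4 hAAM-treated livers; each point is a liver, and the line and bars are the mean ± SD. Srxn1, Slc7a11, Nqo1 and G6pdx lie above control in every injured liver, Txnrd1 lies below control in every injured liver, and control replicate 1 stands above the other control livers for Hmox1 and Gclc.

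Levels are given as CPM, the share of a gene in 1000000 counts of a liver after TMM scaling. To set the genes beside each other, the CPM was divided by the length of the merged exons in kilobases. On this scale of level per length, Gclc stood at the top in control livers with 75.9 ± 25.7 (SD, n = 3), followed by Hmox1 with 34.8 ± 30.8, Gclm with 30.5 ± 1.61, Txnrd1 with 26.3 ± 2.76 and Gsr with 25.5 ± 2.01. The ranges of each of these neighbours overlapped. Below them, with no overlap between neighbours, came Nfe2l2 with 14.8 ± 1.87, Srxn1 with 8.23 ± 0.69, G6pdx with 3.17 ± 0.613, Nqo1 with 1.38 ± 0.482 and Slc7a11 with 0.048 ± 0.033. The genes that rose after APAP were thus the 4 with the lowest level per length in control liver. With vehicle, Srxn1 moved from the 7th to the 4th place of the order with 29.9 ± 7.21 (SD, n = 5) per kilobase, where its range overlapped those of Gsr and Gclm.

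Nfe2l2 (ENSMUSG00000015839, chr2:75675513-75704641, minus strand) had 62.7, 48.6 and 57.5 CPM in control replicates 1 to 3. It had 68.1, 67.0, 57.5, 70.3 and 56.2 CPM in vehicle replicates 1 to 5 and 80.6, 70.4, 52.1 and 57.4 CPM in hAAM replicates 1 to 4. The 3 groups overlapped, with the highest value in hAAM replicate 1 and the lowest in a control liver. Its log2 fold change against control was 0.18 (SE 0.14, edgeR FDR 0.358) with vehicle and 0.21 (SE 0.15, edgeR FDR 0.337) with hAAMs. Scaled by library size alone, which takes the median of all genes to 0.36 with vehicle and to 0.32 with hAAMs, the log2 fold changes of Nfe2l2 were 0.53 and 0.53 with FDRs of 0.0297 and 0.0448.

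The genes of glutathione supply did not move together. Slc7a11 (ENSMUSG00000027737, chr3:49892526-50443614, minus strand) encodes xCT, the transporter that brings in cystine for glutathione synthesis. Its level was 1.20, 0.362 and 0.454 CPM in the control livers, on 23 to 63 counts each. The vehicle-treated livers had 3.84, 3.03, 2.25, 14.1 and 7.20 CPM and the hAAM-treated livers 5.45, 5.93, 1.68 and 2.88 CPM. Every injured liver was above every control liver, and vehicle replicate 4 stood far above the rest of its group. Against control, the log2 fold change was 3.19 (SE 0.72, edgeR FDR 0.00695) with vehicle and 2.58 (SE 0.73, edgeR FDR 0.0273) with hAAMs. Control replicate 1, the highest of its group, held the value down, since without it the log2 fold changes were 3.91 and 3.29. The call with hAAMs was lost without control replicate 2 (FDR 0.091), control replicate 3 (0.0979), hAAM replicate 1 (0.0636) or hAAM replicate 2 (0.0649).

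Gclc and Gclm encode the catalytic and the modifier subunit of glutamate cysteine ligase, the rate-limiting enzyme of glutathione synthesis. Gclc (ENSMUSG00000032350, chr9:77754535-77794485, plus strand) had 397, 228 and 232 CPM in the control livers. It had 224, 236, 301, 282 and 268 CPM with vehicle and 364, 278, 225 and 297 CPM with hAAMs. Control replicate 1 was the highest of all 12 livers, and the other control livers lay at the low end of the injured ones. In the fit, the log2 fold change was −0.12 (SE 0.20, edgeR FDR 0.669) with vehicle and 0.03 (SE 0.21, edgeR FDR 0.94) with hAAMs, and without control replicate 1 the values were 0.19 and 0.34, neither of which passed the test (FDR 0.451 and 0.216).

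For Gclm (ENSMUSG00000028124, chr3:122245557-122270732, plus strand) the control livers had 180, 196 and 199 CPM. The vehicle-treated livers had 157, 173, 189, 187 and 160 CPM and the hAAM-treated livers 146, 151, 184 and 184 CPM. The groups overlapped, and the log2 fold change was −0.15 (SE 0.10, edgeR FDR 0.309) with vehicle and −0.20 (SE 0.11, edgeR FDR 0.199) with hAAMs. Under library size alone these values turned positive, to 0.20 and 0.09, with no call. An exon of Gclm overlaps the antisense transcript Gm17494, which had 139 to 283 counts a liver beside 7739 to 12666 for Gclm.

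The ratio of Gclc to Gclm counts within a liver does not depend on how libraries are scaled. The log2 ratio was 1.14, 0.22 and 0.22 in the control livers, so that control replicate 1 held more than 2 Gclc counts for each Gclm count. It was 0.51, 0.45, 0.67, 0.59 and 0.74 with vehicle and 1.31, 0.88, 0.30 and 0.69 with hAAMs. The vehicle-treated livers lay close together, with a mean of 0.59 ± 0.12 (SD, n = 5), inside the wider spread of the control livers (0.53 ± 0.53, SD, n = 3) and the hAAM-treated livers (0.80 ± 0.42, SD, n = 4). No comparison passed in exact two-sided permutation tests, with p = 0.893 for vehicle against control (difference 0.07), p = 0.457 for hAAMs against control (0.27) and p = 0.381 for hAAMs against vehicle (0.20), and adjusted p-values over the 3 comparisons of 0.893, 0.686 and 0.686. Without control replicate 1 the differences from control were 0.37 with vehicle and 0.58 with hAAMs, with exact p = 0.0952 and p = 0.133. Those are the smallest p-values that the exact tests can give with 2 control livers left, and 4 livers against 3 cannot go below 0.0571.

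**Figure D2:**
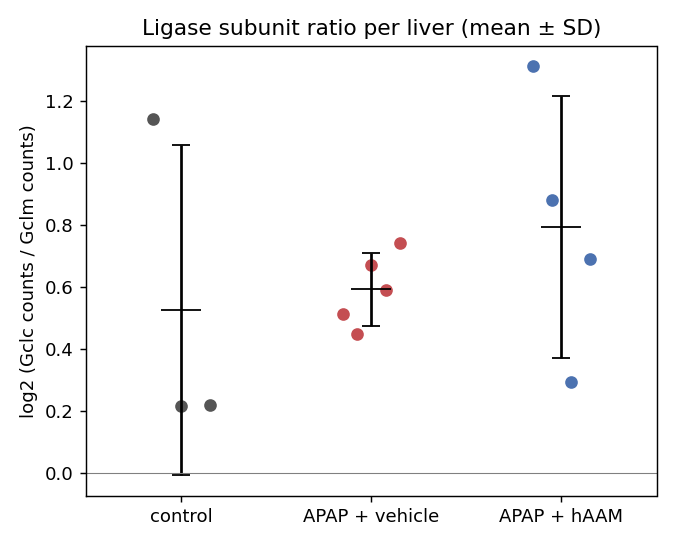
Log2 ratio of Gclc to Gclm counts (y axis) in each of the 3 control, 5 vehicle-treated and 4 hAAM-treated livers; each point is a liver, and the line and bars are the mean ± SD. The vehicle-treated livers lie between 0.45 and 0.74, while control replicate 1 at 1.14 stands far above the other control livers at 0.22.

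Gsr (ENSMUSG00000031584, chr8:33652523-33698163, plus strand) encodes glutathione reductase, which returns oxidized glutathione to its reduced form with NADPH. It had 76.7, 67.0 and 67.2 CPM in the control livers, 80.9, 71.9, 75.0, 98.9 and 106 CPM with vehicle, and 83.8, 72.1, 58.2 and 72.5 CPM with hAAMs. Vehicle replicates 4 and 5 were the highest and hAAM replicate 3 the lowest of all livers. Neither comparison with control passed the test, with fitted log2 changes of 0.30 (SE 0.14, edgeR FDR 0.137) with vehicle and 0.03 (SE 0.15, edgeR FDR 0.914) with hAAMs. Under library size alone the change with vehicle was 0.65 (edgeR FDR 0.0133).

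G6pdx (ENSMUSG00000031400, chrX:74409483-74429194, minus strand) encodes glucose-6-phosphate dehydrogenase, the entry enzyme of the pentose phosphate pathway and a source of NADPH for Gsr and Txnrd1. The control livers had 11.9, 8.34 and 9.07 CPM, the vehicle-treated livers 17.7, 15.7, 14.2, 20.5 and 17.2 CPM, and the hAAM-treated livers 20.1, 19.3, 12.1 and 13.5 CPM. No injured liver reached down to the control range, although hAAM replicate 3 at 12.1 CPM lay just above control replicate 1 at 11.9 CPM. G6pdx rose by 1.75 times with vehicle, or 0.80 on the log2 scale (SE 0.19, edgeR FDR 0.00827), and by 1.66 times with hAAMs, or 0.73 (SE 0.20, edgeR FDR 0.0216). The call with hAAMs was lost without control replicate 2 (FDR 0.0769), control replicate 3 (0.0784), hAAM replicate 1 (0.059) or hAAM replicate 2 (0.0576), and in a fit of these 2 groups alone (0.0581). Exons of G6pdx overlap those of Ikbkg on the other strand, and whether the counting used strand is not stated. Ikbkg had 3513 to 5241 counts a liver beside 459 to 1384 for G6pdx, and went the other way, at −0.34 on the log2 scale (edgeR FDR 0.0196) with vehicle and −0.36 (edgeR FDR 0.0246) with hAAMs.

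Both genes of the thioredoxin branch passed the test, in opposite directions. Srxn1 (ENSMUSG00000032802, chr2:152105516-152111376, plus strand) encodes sulfiredoxin, which repairs over-oxidized peroxiredoxins. The control livers held together at 22.8, 21.5 and 25.3 CPM. With vehicle the values were 76.0, 74.7, 63.7, 90.1 and 117 CPM, and with hAAMs 73.4, 57.2, 33.0 and 58.7 CPM. All injured livers stood above control, with vehicle replicate 5 the highest and hAAM replicate 3 the lowest among them. Srxn1 had a fitted change of 1.86 on the log2 scale (SE 0.25, edgeR FDR 0.000447) with vehicle, a 3.63-fold rise, and 1.26 (SE 0.25, edgeR FDR 0.00592) with hAAMs, a 2.39-fold rise. Both calls held in every alternative and without any single liver.

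Txnrd1 (ENSMUSG00000020250, chr10:82833951-82897712, plus strand) encodes the cytosolic thioredoxin reductase. It had 205, 166 and 188 CPM in the control livers, 151, 141, 136, 155 and 147 CPM with vehicle, and 154, 133, 120 and 134 CPM with hAAMs. All injured livers lay below the lowest control liver. Txnrd1 fell, with a log2 value of −0.35 (SE 0.09, edgeR FDR 0.0153) with vehicle and −0.46 (SE 0.10, edgeR FDR 0.00869) with hAAMs. This fall is relative to the TMM scaling: under library size alone it was −0.0036 with vehicle and −0.15 with hAAMs and was not called (FDR 0.983 and 0.39). The call with vehicle was also lost without control replicate 1 (log2 fold change −0.28, FDR 0.076) or control replicate 3 (−0.35, FDR 0.0515).

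Nqo1 (ENSMUSG00000003849, chr8:107388225-107403206, minus strand) encodes NAD(P)H quinone dehydrogenase 1, which reduces quinones in a single step of 2 electrons. Its level was low, with 3.01, 1.78 and 1.66 CPM in the control livers on 84 to 158 counts each. The vehicle-treated livers had 6.49, 4.68, 5.30, 5.87 and 6.41 CPM and the hAAM-treated livers 5.22, 3.30, 4.34 and 5.68 CPM. The lowest injured liver, hAAM replicate 2, stood just above the highest control liver. The log2 fold change was 1.42 (SE 0.23, edgeR FDR 0.00131) with vehicle and 1.11 (SE 0.24, edgeR FDR 0.00839) with hAAMs, which is a 2.68-fold and a 2.16-fold rise. Both calls held in every alternative and without any single liver.

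Hmox1 (ENSMUSG00000005413, chr8:75093621-75100589, plus strand) encodes heme oxygenase 1, which breaks down heme and is also high in macrophages that clear red cells. It had 123, 33.3 and 26.6 CPM in the control livers, 63.4, 38.5, 37.5, 105 and 61.8 CPM with vehicle, and 66.4, 66.4, 49.6 and 36.7 CPM with hAAMs. Control replicate 1 was the highest of all 12 livers, and the other control livers lay below every injured liver. The log2 fold change was 0.0041 (SE 0.47, edgeR FDR 0.996) with vehicle and −0.16 (SE 0.49, edgeR FDR 0.852) with hAAMs. Without control replicate 1 the values were 1.03 (FDR 0.0774) and 0.87 (FDR 0.159), so this liver set the value and no direction is given for Hmox1.

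**Figure D3:**
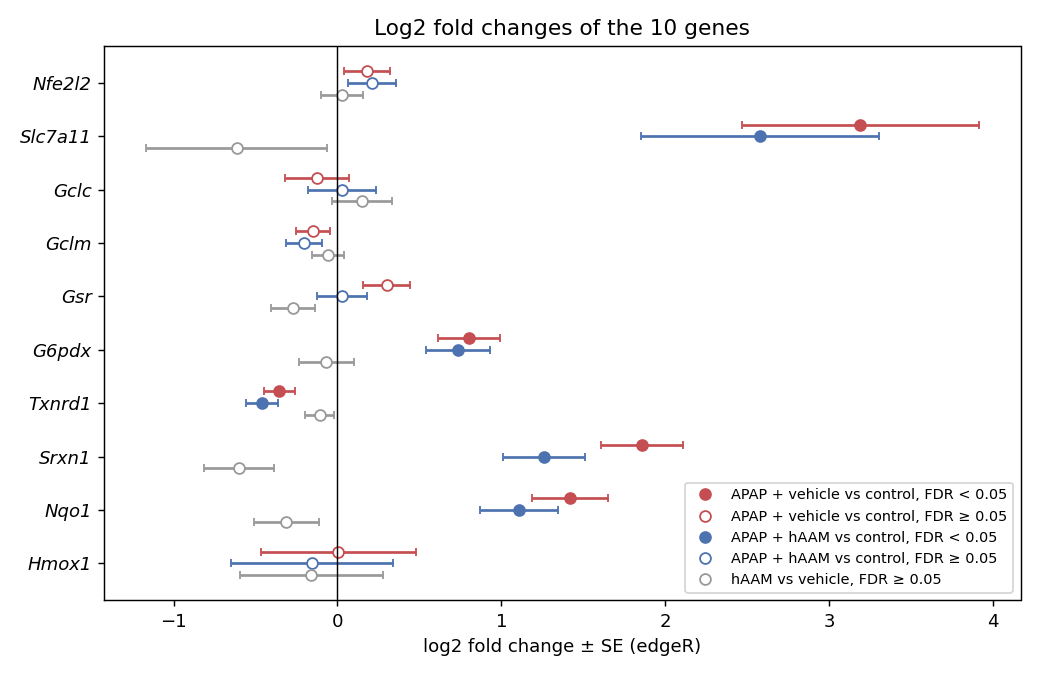
Log2 fold change (x axis, edgeR) of each of the 10 genes for vehicle against control, hAAMs against control and hAAMs against vehicle; points are fitted values, bars are ± SE, and filled points have an FDR under 0.05. Srxn1, Slc7a11, Nqo1 and G6pdx are filled to the right of 0 and Txnrd1 to the left for both injured groups, and no point is filled for hAAMs against vehicle.

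The effect of the cell treatment was read from hAAM-treated against vehicle-treated livers. None of the 10 genes passed the test, and neither did any of the 22581 genes in edgeR's test (0.0% called). At an unadjusted p under 0.05, 1133 genes (5.02%) differed, and DESeq2 called 1 gene (0.00443%), which was not among the 10. The values of all 10 genes overlapped between the treatments, and groups without overlap were found for 1.4% of all genes. Srxn1 was the single gene of the 10 at an unadjusted p under 0.05, at −0.60 on the log2 scale (SE 0.21, edgeR FDR 0.966). Its mean was 55.6 ± 16.7 CPM (SD, n = 4) with hAAMs and 84.2 ± 20.3 CPM (SD, n = 5) with vehicle. Across the alternatives the difference in Srxn1 ran from −0.76 to −0.42, the smaller value without hAAM replicate 3, and the FDR never fell below 0.469. Gsr differed by −0.27 (SE 0.13, edgeR FDR 0.966), Slc7a11 by −0.62 (SE 0.55), but by −0.037 without vehicle replicate 4, Nqo1 by −0.31 (SE 0.20) and Gclc by 0.15 (SE 0.18). For the other 5 genes the difference lay between −0.16 and 0.03.

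The injured livers differed among themselves in the 10 genes. hAAM replicate 3 had the lowest value of the 9 injured livers for 6 of the 10 genes, and vehicle replicate 4 had the highest for 4. Over the 45 pairs of genes, the median Pearson r of log2 CPM in the 9 injured livers was 0.38, which is a description over livers that share a scaling and the injury. Srxn1 and Gsr had the highest r (0.94), followed by Slc7a11 and G6pdx (0.87) and by Hmox1 and Slc7a11 (0.85). Gclm stood apart, since it took part in 8 of the 9 pairs with a negative r, including −0.62 with G6pdx and −0.62 with Nfe2l2. The subunits Gclc and Gclm had an r of −0.20 with each other, and Nqo1 had an r of −0.10 with Nfe2l2.

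**Figure D4:**
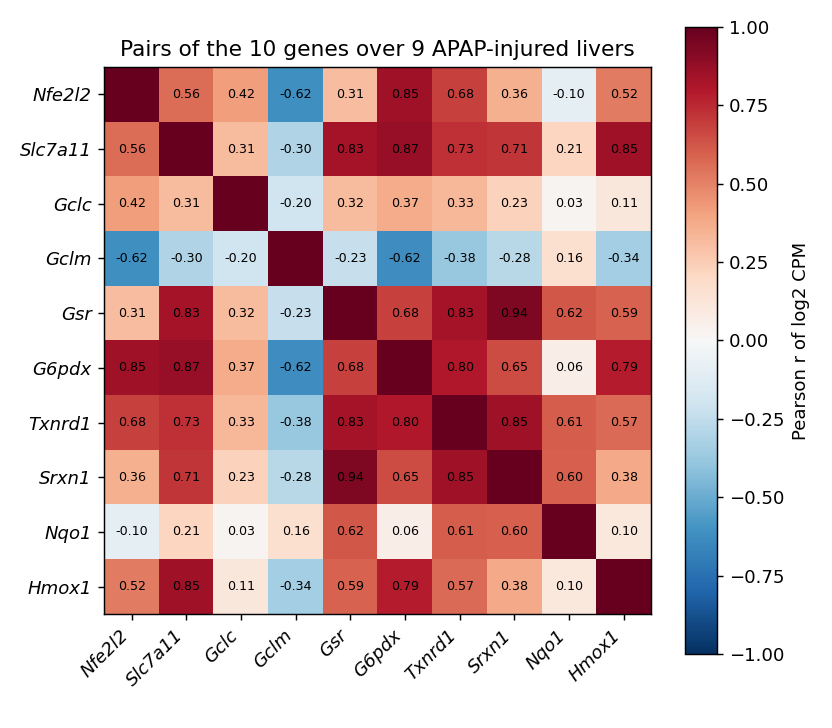
Pearson r of log2 CPM between each pair of the 10 genes over the 9 APAP-injured livers (5 with vehicle, 4 with hAAMs), with the colour scale from −1 to 1. Srxn1, Gsr, Txnrd1, Slc7a11 and G6pdx form a block of high values, and the row of Gclm is blue except for Nqo1 at 0.16.

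The 11163 other genes at a mean log2 CPM of 2 or more were ranked by their r with Nqo1 and with Gclc. With so many genes over 9 livers, of which a pair was nearly alike, the first in rank can reach a high r by chance, and the ranking is given as a description alone. First for Nqo1 were the processed pseudogene Gm6977 (r = 0.91), Ecm1 (0.90) and Tmem160 (0.89). First for Gclc were Tmem41b (0.93), Eml6 (0.92) and Elavl1 (0.91). Of these 6 genes, Gm6977 rose against control in both injured groups, with log2 fold changes of 0.74 (edgeR FDR 0.00114) with vehicle and 0.49 (edgeR FDR 0.0148) with hAAMs, and Elavl1 fell by 0.24 on the log2 scale with vehicle (edgeR FDR 0.0187).

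The wider pathway was followed in 7 lists of 71 further genes, of which 70 were tested. Ggt1 did not pass the filter on low counts. With vehicle, 13 of the 70 genes were higher (18.6%, beside 15.0% of all genes) and 15 lower (21.4%, beside 14.8%). With hAAMs, 8 were higher (11.4%, beside 10.7%) and 10 lower (14.3%, beside 9.96%). These shares lie near those of all genes, and the same shares of all genes stand behind the counts of each list given next, which are small. The median log2 fold change of the 70 genes was −0.03 with vehicle and −0.01 with hAAMs, close to that of all genes. The split depends on the scaling: under library size alone it was 34 higher and 5 lower with vehicle and 26 higher and 5 lower with hAAMs, and the 10 genes of the set were then 6 higher and 0 lower with vehicle and 5 higher and 0 lower with hAAMs. Of all genes tested, this scaling called 38.2% higher and 4.92% lower with vehicle and 29.0% higher and 3.46% lower with hAAMs. The count of higher genes with hAAMs also went to 4 without control replicate 2, to 5 without control replicate 3 and to 13 with DESeq2. The share of all genes called higher moved in the same direction, to 7.28%, 4.82% and 13.6%. Between the treatments 0 of the 70 genes were called by edgeR, and 5 had an unadjusted p under 0.05, beside 5.02% of all genes.

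**Figure D5:**
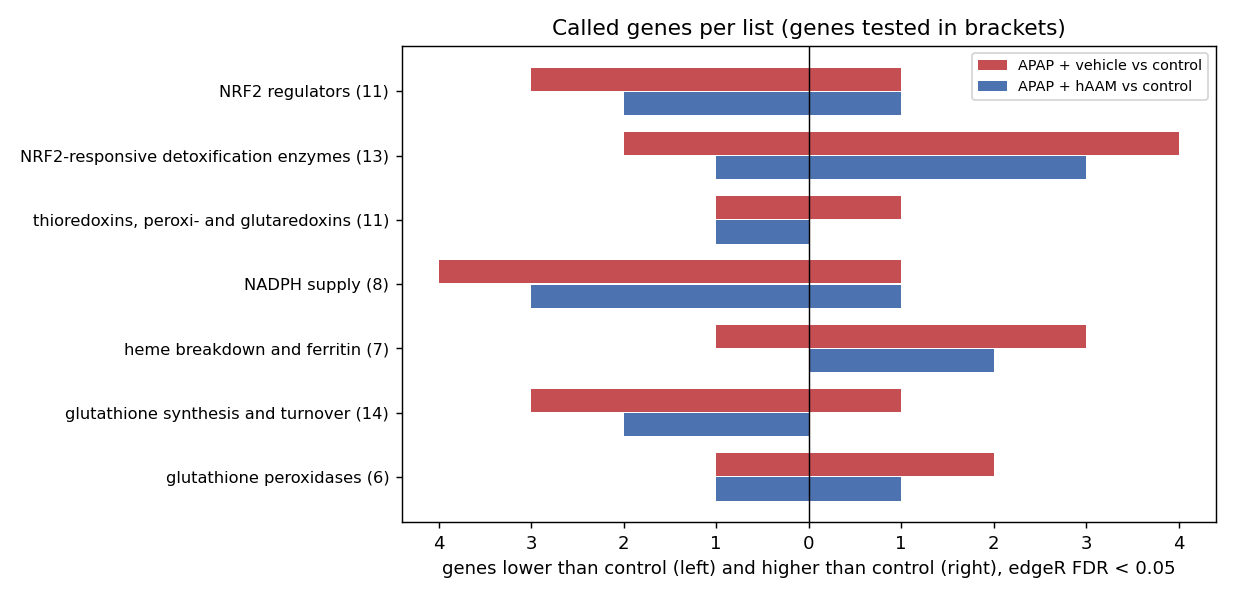
Number of genes of each list called lower (left of 0) or higher (right of 0) than control by edgeR at an FDR under 0.05, for vehicle-treated and hAAM-treated livers; the number tested stands in brackets after each list. The NADPH list has 4 genes lower and 1 higher with vehicle, while the detoxification list has 4 higher and 2 lower.

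Of the 11 regulators of NRF2, 1 was higher and 3 were lower with vehicle, and 1 was higher and 2 were lower with hAAMs. Keap1, the adaptor that marks NRF2 for destruction, went from 35.7 ± 1.68 CPM (SD, n = 3) in control to 29.5 ± 1.77 (SD, n = 5) with vehicle and 28.8 ± 2.17 (SD, n = 4) with hAAMs, at log2 fold changes of −0.28 and −0.31 (edgeR FDR 0.0144 and 0.0153). Like the fall of Txnrd1, these small falls are relative to the TMM scaling, since library size alone takes the median of all genes to 0.36 with vehicle and 0.32 with hAAMs. Nfe2l1, a related factor that controls proteasome genes, fell by 0.57 and by 0.60 on the log2 scale (edgeR FDR 0.00132 and 0.00239). Btrc, a subunit of another ligase that removes NRF2, rose by 0.36 and 0.34 (edgeR FDR 0.00195 and 0.00589). Among 13 detoxification enzymes and transporters, 4 were higher and 2 lower with vehicle, and 3 were higher and 1 lower with hAAMs. Cbr3, a carbonyl reductase, was at 0.30 CPM in control and rose by 2.36 with vehicle and 1.97 with hAAMs on the log2 scale (edgeR FDR 0.000128 and 0.000871). Abcc4, an efflux transporter, rose by 1.18 and 1.22 (edgeR FDR 0.00107 and 0.00192). Osgin1, an oxidative stress response gene, went from 323 ± 36.3 CPM in control to 132 ± 29.2 with vehicle and 92.3 ± 45.3 with hAAMs, at log2 fold changes of −1.29 and −1.81 (edgeR FDR 0.00598 and 0.00291).

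The list of NADPH supply held 1 higher and 4 lower genes of 8 with vehicle, and 1 higher and 3 lower with hAAMs. Pgd, the enzyme 2 steps after G6pdx in the pentose phosphate pathway, rose by 0.96 and 0.78 on the log2 scale (edgeR FDR 0.00874 and 0.0346). The malic enzyme Me1 fell by 1.57 and by 1.48 on the log2 scale, and the NAD kinase Nadk fell by 0.53 and by 0.48. H6pd, the hexose-6-phosphate dehydrogenase of the endoplasmic reticulum, also fell by 0.72 and by 0.66, and the 6 FDRs of these 3 genes lay between 0.000999 and 0.00743 in edgeR's test. Idh1, the cytosolic isocitrate dehydrogenase, fell by 0.60 with vehicle (edgeR FDR 0.00675), and its log2 fold change with hAAMs was −0.42 (edgeR FDR 0.0553). Among 11 thioredoxins, peroxiredoxins and glutaredoxins, Glrx rose with vehicle by 0.79 (edgeR FDR 0.00555), and its log2 fold change with hAAMs was 0.43 (edgeR FDR 0.102). Glrx2, the mitochondrial glutaredoxin, fell by 0.37 with vehicle and by 0.42 with hAAMs (edgeR FDR 0.00924 and 0.0107), and the other 9 genes of the list, which include all peroxiredoxins measured, did not pass the test.

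In the list of heme breakdown and ferritin, 3 of 7 genes were higher and 1 was lower with vehicle, and 2 were higher with hAAMs. Fth1, the ferritin heavy chain, went from 586 ± 58.6 CPM in control to 1046 ± 152 with vehicle and 824 ± 104 with hAAMs, at log2 fold changes of 0.84 and 0.49 (edgeR FDR 0.00196 and 0.0373). Blvra, which reduces the biliverdin that heme oxygenase makes, rose by 0.62 in both (edgeR FDR 0.0133 and 0.0232). Fech, which inserts iron into heme, fell by 0.39 with vehicle (edgeR FDR 0.0296). Of 14 tested genes of glutathione precursors, synthesis and turnover, 1 was higher and 3 were lower with vehicle, and 2 were lower with hAAMs. Slc3a2, the partner chain of the Slc7a11 transporter, rose by 0.73 with vehicle (edgeR FDR 0.00562), and its value with hAAMs was 0.47 (edgeR FDR 0.06). Ggt6 fell by 0.95 and by 1.06 and Oplah, the oxoprolinase of glutathione breakdown, fell by 0.63 and by 0.79 (edgeR FDRs from 0.0024 to 0.0267). Gss, the enzyme that completes glutathione, had log2 fold changes of 0.19 and 0.20 and did not pass the test. Among 6 glutathione peroxidases, Gpx1 went from 726 ± 34.9 CPM in control to 266 ± 58.3 with vehicle and 363 ± 109 with hAAMs, at a log2 fold change of −1.45 with vehicle (edgeR FDR 0.00077), and it was lower with hAAMs too (edgeR FDR 0.0106). Gpx7 rose by 1.26 and 1.30 (edgeR FDR 0.015 and 0.0226) from 0.59 CPM in control, and Gpx2, near 0 in control at 0.05 CPM, rose by 2.73 with vehicle (edgeR FDR 0.0176).

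Some markers of several cell types moved with the injury. Beside the counts that follow stand 15.0% of all genes higher and 14.8% lower with vehicle, and 10.7% higher and 9.96% lower with hAAMs. A single call in so short a list says little of its cell type. Depth was 47391650 to 74056505 counts a liver, and in bulk tissue fewer cells of a type and less RNA per cell cannot be told apart. All 5 markers of pericentral hepatocytes were lower with vehicle and 3 of 5 with hAAMs, with a summed level of 3850 to 6207 CPM in control, 343 to 1440 CPM with vehicle and 446 to 2814 CPM with hAAMs. The liver with the highest pericentral level among the injured ones was hAAM replicate 3, which had the lowest Srxn1, Slc7a11, G6pdx, Gsr, Txnrd1 and Nfe2l2, and the liver with the lowest was vehicle replicate 4, which had the highest Slc7a11, Hmox1, Txnrd1 and G6pdx. The order did not hold for all: hAAM replicate 2, next to the lowest at 446 CPM, had the lowest Nqo1, and vehicle replicate 5, with the highest Srxn1 and Gsr, was at 1014 CPM. For macrophages, 3 of 8 markers were higher in each injured group, and the summed level was 291 to 356 CPM in control, 378 to 613 CPM with vehicle and 374 to 586 CPM with hAAMs. Of 5 red cell markers, the 4 globin genes were higher with vehicle, at 5.50-fold to 5.90-fold, and at 4.62-fold to 4.71-fold did not pass the test with hAAMs (edgeR FDRs from 0.0618 to 0.0699). Vehicle replicate 5 carried the fold with vehicle, which was 2.81-fold to 2.95-fold without it, and the 4 genes then passed the test with hAAMs as well, at 4.63-fold to 4.72-fold (edgeR FDRs from 0.0133 to 0.0159). The median of the summed red cell markers was 437 CPM with vehicle and 670 CPM with hAAMs. Hba-a1 and Hba-a2 are near-identical copies that can share reads, as can Hbb-bs and Hbb-bt. Alas2, the enzyme that starts heme synthesis in red cell precursors, was lower in both injured groups. Of 5 endothelial markers, Cdh5 and Pecam1 were higher with vehicle and Cdh5 with hAAMs, while Clec4g lay below every control liver in both groups, at log2 fold changes of −0.58 and −0.67 that did not pass the test (edgeR FDR 0.0598 and 0.0532) with all livers, and passed it without some single livers. Of 4 stellate markers, 1 was called, the collagen gene Col1a1, which was 5.32-fold and 6.22-fold higher. Of 5 periportal markers, 1 was called, Sds, which was 2.52-fold and 2.92-fold higher. With vehicle Sds still overlapped control, with a lowest value of 57.0 CPM against 71.9 CPM in the highest control liver. The other 3 stellate and 4 periportal markers overlapped control in both groups, with log2 fold changes of either sign. Without 1 liver or another, calls were lost for Cyp1a2, Cyp2e1, Lyz2, Pecam1, Cyp3a11 and the globins with vehicle, for Slc1a2 and Cdh5 with hAAMs and for Sds and Col1a1 with both, whereas Glul, Oat, Cd68, Marco and Alas2 kept theirs. No neutrophil, B lineage or cholangiocyte marker that was tested was called against control with all livers. The part of these markers in the changes of the 10 genes was not tested. Vehicle replicate 5 also had the highest summed level of B lineage markers (87.7 CPM, against 4.08 to 11.02 CPM in the other 11 livers) and of red cell markers (2025 CPM), and without it the B lineage gene Igkc was lower with vehicle than in control (0.409-fold, edgeR FDR 0.0175). The 5 general hepatocyte markers summed to 53039 to 91378 CPM, most of it Alb, and of these Alb, Apoa1, Ttr and Serpina1c were not called. Cyp3a11, a cytochrome P450 of the same list, was at 1146 ± 516 CPM (SD, n = 3) in control, 191 ± 157 CPM (SD, n = 5) with vehicle, where it was lower (log2 fold change −2.59, edgeR FDR 0.0347), and 520 ± 589 CPM (SD, n = 4) with hAAMs, where it was not called (edgeR FDR 0.38).

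hAAM replicate 4 and vehicle replicate 3 carry different labels, and their counts were nearly alike, with a spread of 1.20 times counting noise against 2.38 to 4.94 times in the other 35 pairs of injured livers. Each was kept in its own group. Without both, the 10 genes again held 4 higher and 1 lower in each comparison with control and none between the treatments, and Srxn1 had a log2 fold change between the treatments of −0.72 (edgeR FDR 0.634).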

How the data were processed

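Liver libraries labelled as 12 mice were sequenced after depletion of ribosomal RNA with a kit that keeps strand. Per the labels and the methods, the authors used cutadapt 4.6 for trimming, STAR 2.7.1a for alignment to GRCm38 and summarizeOverlaps for counting, whose strand setting is not stated. The deposited values are raw counts of 24187 genes. Groups and replicate numbers came from the labels. Symbols and coordinates came from GENCODE M21 (GRCm38), and promoter sequence from RefSeq (GRCm38.p6).

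Genes with low counts were removed with filterByExpr by group, counts were scaled with TMM, and edgeR 4.0.16 (R 4.3.3) fitted 1 quasi-likelihood model to all livers, after a trial on simulated data. P-values are two-sided, with Benjamini-Hochberg adjustment. The SE of a log2 fold change is its size divided by the root of edgeR's F. Log2 CPM carries a prior count of 2. For the ratio of Gclc to Gclm, exact permutation tests used all splits of the livers in 2 groups.

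The 10 genes, the pathway lists and the marker lists were chosen with earlier results of these data known. All 10 genes are given, and per pathway list up to 3 called genes with the smallest p against control. Pgd, Idh1, Gss, Ggt1 and the markers named singly were added after their values were seen. Alternatives were DESeq2 1.42.0, DESeq2's size factors in edgeR, library size alone, other filters, robust dispersion, a fit of 2 groups, a replicate block, leaving out each liver, and leaving out the nearly identical pair.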

Additional observations from a re-analysis of the deposited data

How the results depend on the processing

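For the 10 genes, most calls kept their side of the threshold. Library size alone as the scaling changed the most: it left 0 of the 10 genes lower than control with vehicle and 0 with hAAMs, and took the wider lists to 34 higher and 5 lower with vehicle and to 26 higher and 5 lower with hAAMs, while DESeq2 called 13 higher with hAAMs. The shares of all genes under these settings stand with the wider lists above. Log2 fold changes near 0 turned sign, none of them called: Hmox1 with vehicle was −0.016 in DESeq2 and −0.015 with DESeq2's size factors in edgeR, Gclc and Gclm with vehicle were 0.22 and 0.20 by library size alone, Hmox1 and Gclm with hAAMs were 0.16 and 0.089, and Nfe2l2 between the treatments was −0.0028.

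The replicate numbers were not taken to pair the livers. In deviations from the group mean, same-numbered livers had correlations of −0.46 to 0.38, and 3 of 10 were over 0.1. With so few livers in a group, these values cannot show that no pairing exists. With the replicate block, the genes called over all genes went from 6719 to 4253 with vehicle and from 4666 to 2959 with hAAMs, and Hmox1 (0.082) and Gsr (−0.030) with hAAMs and Nfe2l2 between the treatments (−0.026) turned sign, with the calls of the 10 genes as before.

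Leaving out each liver gave 0 to 1 of the 10 genes lower with vehicle, 2 to 4 higher with hAAMs, and 4 to 12 of the wider lists higher with hAAMs. Over all genes tested, the same fits called 10.4% to 15.8% lower with vehicle and 4.82% to 12.9% higher with hAAMs. Log2 fold changes that turned sign ran from −0.36 to 1.03 for Hmox1 and from −0.26 to 0.19 for Gclc with vehicle. With hAAMs they ran from −0.51 to 0.87 for Hmox1, from −0.11 to 0.34 for Gclc and from −0.053 to 0.12 for Gsr. Between the treatments they ran from −0.088 to 0.12 for Nfe2l2, from −0.29 to 0.12 for Hmox1 and from −0.19 to 0.048 for G6pdx. The Gclc to Gclm log2 ratio with vehicle against control ran from −0.088 to 0.37. The causes were not tested, apart from control replicate 1, whose omission set the upper ends for Hmox1 and Gclc against control. In a control liver, Slc7a11 rested on 23 to 63 and Nqo1 on 84 to 158 counts.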
